A study of Canis lupus familiaris with 8 samples.

Results

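CEMIP is the gene of a secreted and membrane-associated protein that binds hyaluronan and takes part in its breakdown. It was chosen because its transcript was higher at 500 mOsm than at 300 mOsm and higher again with both Nfat5-siRNAs, so those 3 differences are described here without a test. It is 1 of the 32704 genes in the count table and 1 of the 19835 genes that were tested. The identifier ENSCAFG00000013863 was taken from the study's supplementary gene list, which pairs it with the symbol CEMIP.

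The RNA came from MDCK I cells, an epithelial line from dog kidney, and 8 libraries formed 4 groups of 2. All groups were transfected with 100 nM siRNA. Neg-siRNA, the control, was directed against Slc22a6, a transporter gene that the study states is silent in these cells. Kept in isosmotic medium it formed the isosmotic control, Neg-siRNA (300 mOsm). With raffinose in the medium for the last 24 h it formed the hyperosmotic control, Neg-siRNA (500 mOsm). Different siRNA constructs against Nfat5, in the same raffinose medium at 500 mOsm, gave the groups called Nfat5-1-siRNA and Nfat5-2-siRNA. Replicate 1 of every group was cell passage 15 and replicate 2 was passage 17, so n = 2 stands for passages of a single cell line. The total count per library ranged from 34564103 to 46043788. None of the 24 marker genes of renal epithelium, fibroblasts, endothelium and leukocytes that were listed could be paired with an identifier, so the labelled cell type was not checked.

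Hyaluronan is a long unbranched polysaccharide of the extracellular matrix, made at the plasma membrane by the HAS synthases and shortened by the HYAL hyaluronidases, by CEMIP and by its relative CEMIP2. CEMIP, also called KIAA1199 or HYBID, is known from skin fibroblasts and from tumours, where it is linked to cell movement. In the kidney, hyaluronan is found mainly in the interstitium of the medulla, the region where urine is concentrated and the surroundings of the cells are hyperosmotic. Nfat5, also called TonEBP, is the transcription factor that raises carriers and enzymes for organic osmolytes under hyperosmolality.

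In the count table CEMIP lies on the reverse strand of chromosome 3 of CanFam 3.1, from 56729184 to 56786497, with 28 exon intervals and 4464 exonic bases. No other gene of the annotation overlapped this span on either strand, so the strand-blind counting mixed in no annotated partner. Raw counts of CEMIP were 236 and 67 in replicates 1 and 2 of the isosmotic control and 4416 and 2540 in the hyperosmotic control. They were 28474 and 24664 in Nfat5-1-siRNA and 27849 and 27304 in Nfat5-2-siRNA. Even the lowest library thus held far more counts of CEMIP than the 3 counts used as a detection floor.

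Expressed as CPM, the count scaled to the TMM-corrected library total, CEMIP was at 5.31 and 1.98 CPM in replicates 1 and 2 of the isosmotic control. It was at 120 and 63.6 CPM in the hyperosmotic control. With Nfat5-1-siRNA it was at 612 and 525 CPM, and with Nfat5-2-siRNA at 663 and 647 CPM. Every library of a group was above every library of the group before it in this order, and both Nfat5-siRNA groups lay far above both control groups. The means were 3.65 ± 2.35 CPM (SD, n = 2), 91.7 ± 39.7 CPM, 568 ± 61.4 CPM and 655 ± 11.3 CPM. In RNA from whole cultures, more RNA per cell and more cells that express the gene cannot be told apart.

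**Figure D1:**
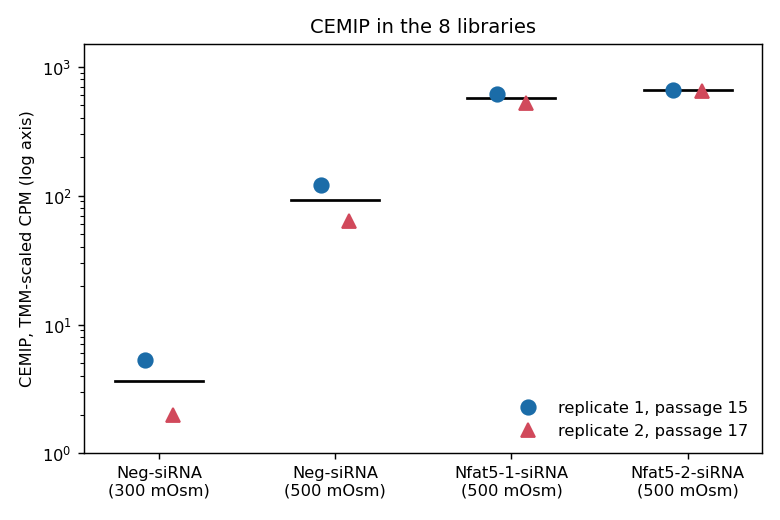
CEMIP in TMM-scaled CPM on a log axis for the 4 groups. Each point is a library, circles for passage 15 and triangles for passage 17, and the bars are group means. The points climb from 1.98 CPM in the lowest Neg-siRNA (300 mOsm) library to 663 CPM in the highest Nfat5-2-siRNA library, and the passages lie apart in the control groups and close together with the Nfat5-siRNAs.

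The log2 fold change was 4.63 (SE 0.38) for the hyperosmotic control against the isosmotic control, which is 24.7-fold. Against the hyperosmotic control, it was 2.63 (SE 0.34), or 6.20-fold, with Nfat5-1-siRNA and 2.84 (SE 0.34), or 7.14-fold, with Nfat5-2-siRNA. Both siRNA values share the same the hyperosmotic control libraries with each other and with the hyperosmotic value. Within passage 15 the hyperosmotic fold was 22.6, that of Nfat5-1-siRNA was 5.11 and that of Nfat5-2-siRNA was 5.53. Within passage 17 they were 32.1, 8.25 and 10.2. Each fold was thus larger in passage 17, and the direction was the same in both passages.

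The passages differed most where CEMIP was low. Passage 15 had 2.68 times the CPM of passage 17 in the isosmotic control and 1.88 times in the hyperosmotic control. The ratio was 1.17 with Nfat5-1-siRNA and 1.02 with Nfat5-2-siRNA. Because of this spread, leaving out 1 library moved the size of the changes. Without replicate 1 of the isosmotic control, the library with the higher isosmotic level, the hyperosmotic log2 fold change was 5.48, and without replicate 2 it was 4.11. Without replicate 1 of the hyperosmotic control, it was 4.04, and the values for the siRNAs were 3.22 and 3.46.

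Whether the constructs differed from each other was a question the choice of the gene did not use, and it was tested. The log2 difference of Nfat5-2-siRNA against Nfat5-1-siRNA was 0.20 (SE 0.32), with a 95% interval from −0.48 to 0.89 (adjusted p = 1, edgeR's quasi-likelihood test). In the fit that paired the replicates as a block it was 0.22 (SE 0.14, adjusted p = 1, edgeR). Although the Nfat5-2-siRNA libraries were both above the Nfat5-1-siRNA libraries, the difference did not exceed the spread between replicates, and the interval leaves room for a difference of either sign. In this comparison, 6 of the 19835 genes (0.0302%) were significantly higher with Nfat5-2-siRNA and 2 (0.0101%) were lower. These counts depended on the pairing, since 474 genes were higher and 505 lower (4.94% together) in the fit with the block.

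The position of CEMIP within the transcriptome changed with its level. With CPM divided by the exon length in kilobases (RPKM), CEMIP was at 0.817 ± 0.527 in the isosmotic control, below the median of the tested genes, which was 3.70 and 3.60 RPKM in those libraries. Between 33.3% and 40.7% of tested genes had a lower RPKM there. In the hyperosmotic control, at 20.5 ± 8.90 RPKM, this share was 80.1% in replicate 1 and 70.1% in replicate 2. With the Nfat5-siRNAs it was between 96.3% and 97.7%, at 127 ± 13.7 RPKM with Nfat5-1-siRNA and 147 ± 2.53 RPKM with Nfat5-2-siRNA. A transcript from the lower part of the ranking at 300 mOsm thus stood among the most abundant few percent in all 4 Nfat5-siRNA libraries.

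For 4 known targets of Nfat5, the mean levels per exon length are given beside that of CEMIP as a description. Of their differences with the Nfat5-siRNAs, that of SLC5A3 with Nfat5-1-siRNA did not pass the test without the block (adjusted p = 0.0716, edgeR), and calls of SLC6A12, SLC6A6 and SLC5A3 were lost when 1 library was left out. SLC6A12, the betaine carrier BGT1, had a mean of 1.04 RPKM in the isosmotic control and 532 RPKM in the hyperosmotic control, but 159 RPKM with Nfat5-1-siRNA and 141 RPKM with Nfat5-2-siRNA. SLC6A6, the taurine carrier, was at 35.2, 444, 182 and 161 RPKM in the same order. In the hyperosmotic control, CEMIP was thus far below both carriers. With the Nfat5-siRNAs, the mean of SLC6A12 was close to that of CEMIP. AKR1B1, the aldose reductase that makes sorbitol, was at 20.0, 1132, 244 and 263 RPKM, and SLC5A3, the myo-inositol carrier, was at 0.0863, 5.42, 1.97 and 1.38 RPKM.

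No identifier carried the name Nfat5. ENSCAFG00000020254, which lies next to NQO1 in the count table where RefSeq places NFAT5 between NQO1 and CYB5B, was taken as Nfat5 by position. Its mean was 22.7 CPM in the isosmotic control, 82.2 CPM in the hyperosmotic control, 95.9 CPM with Nfat5-1-siRNA and 72.9 CPM with Nfat5-2-siRNA. The level of this transcript was not significantly lower with either siRNA, with log2 fold changes of 0.22 (SE 0.14) and −0.17 (SE 0.14) and adjusted p = 1 for both from edgeR. The labels of the siRNA libraries therefore could not be checked by the counts of the targeted gene. The study likewise reports no effect of the siRNAs on Nfat5 mRNA, but less Nfat5 protein by western blot.

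Among all tested genes, 11.3% were significantly higher with hyperosmolality, 3.4% were higher with Nfat5-1-siRNA and 4.67% were higher with Nfat5-2-siRNA. Genes significantly higher in all 3 comparisons, the pattern by which CEMIP was chosen, numbered 31 of the 19835 tested. CEMIP is among the 31 because of that choice, so its place there is not a test of it. With the replicate number as a block there were 181. One of the 31 was FAT4, the gene of a very large cadherin, which was measured at 0.180 and 0.385 CPM in replicates 1 and 2 of the isosmotic control and 1.93 and 1.98 CPM in the hyperosmotic control. It was at 15.3 and 27.3 CPM with Nfat5-1-siRNA and 28.9 and 28.5 CPM with Nfat5-2-siRNA. FAT4 thus had the same order of groups at a much lower level, and it was named after its values were seen.

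HMOX1, the heme oxygenase of the oxidative stress response, was also higher in all 3 comparisons, with log2 fold changes of 2.66 (SE 0.15), 2.44 (SE 0.14) and 1.63 (SE 0.14). It was lower with Nfat5-2-siRNA than with Nfat5-1-siRNA, at 164 against 287 CPM, whereas CEMIP was at 655 against 568 CPM. For HMOX1 the log2 difference was −0.81 (SE 0.14). It passed the test with the block (adjusted p = 7.42e-06, edgeR), but not without it (adjusted p = 0.155).

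The genes whose pattern was most like that of CEMIP were searched among the 721 other genes with a symbol and a mean of at least 10 CPM. The measure was Pearson's r of log2 CPM over the 8 libraries, which fall into 4 groups and share their depth and passage with CEMIP, so r is a description. Among the highest values were those of CLEC16A (r = 0.992), TFIP11 (0.991), OSBPL11 (0.991), DPP9 (0.991) and KLC2 (0.989). CLEC16A acts in mitophagy and endosomal traffic, TFIP11 in the disassembly of the spliceosome, OSBPL11 in lipid exchange between membranes, DPP9 is a cytosolic dipeptidyl peptidase and KLC2 is a light chain of kinesin. All symbols come from the study's list of regulated genes, which was selected on these samples. Across all 9202 other genes of at least 10 CPM, with or without a symbol, the median r was 0.0949, and 3 had a higher r than CLEC16A. By Spearman's rho none of these 5 was among the first 6, but those 6 were cut from tied values. A rho at least that of the sixth was held by 11 genes. For the 5 genes rho ran from 0.786 (CLEC16A) to 0.952 (TFIP11), where the highest was 0.976.

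The differences between groups were much smaller in these 5 genes than in CEMIP. Because the genes were chosen for their likeness to CEMIP over the same libraries, their values in the 3 comparisons with a control are a description. CLEC16A was measured at 22.0 and 17.6 CPM in replicates 1 and 2 of the isosmotic control, 41.7 and 37.6 CPM in the hyperosmotic control, 70.1 and 74.7 CPM with Nfat5-1-siRNA and 65.5 and 70.2 CPM with Nfat5-2-siRNA. Unlike in CEMIP, the libraries of Nfat5-1-siRNA were not below those of Nfat5-2-siRNA. The log2 fold changes of CLEC16A came to 1.00 (SE 0.16), 0.87 (SE 0.15) and 0.77 (SE 0.15), and those of DPP9 to 1.21 (SE 0.14), 0.70 (SE 0.13) and 0.79 (SE 0.13). For TFIP11, OSBPL11 and KLC2, the values with the siRNAs lay between 0.47 and 0.65. The largest of the hyperosmotic log2 fold changes of these genes was 1.23, against 4.63 for CEMIP.

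**Figure D2:**
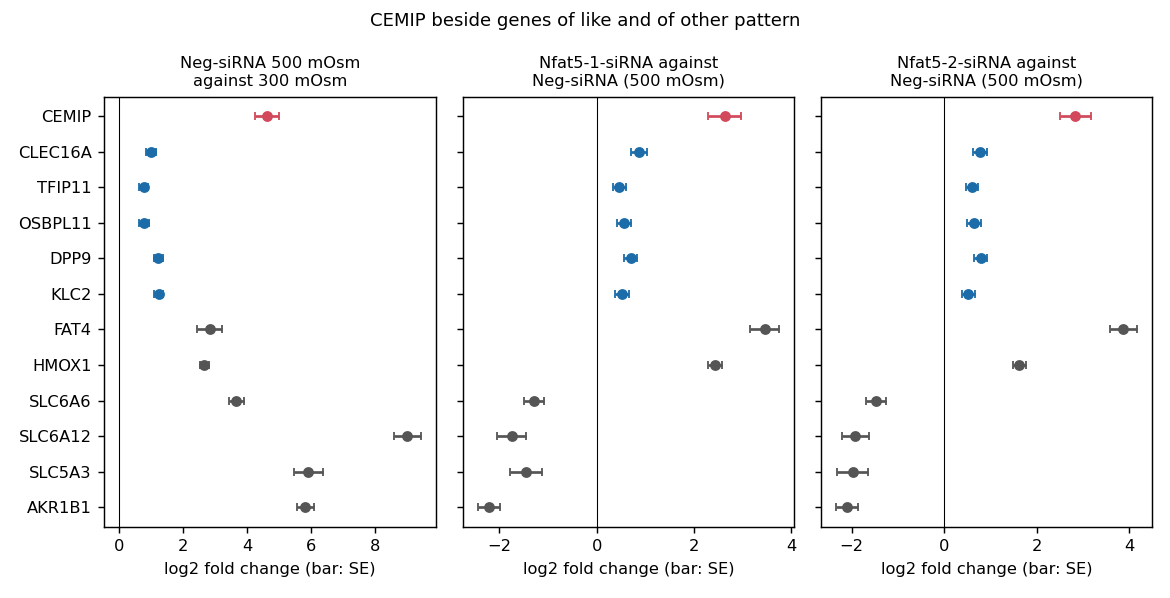
Log2 fold changes with standard errors in the 3 comparisons for CEMIP (red), 5 genes of most similar pattern (blue), and FAT4, HMOX1 and 4 osmolyte genes (grey). CEMIP stands at 4.63, 2.63 and 2.84, to the right of all 5 blue genes in each panel, while SLC6A6, SLC6A12, SLC5A3 and AKR1B1 lie right of 0 in the first panel and left of 0 in the others.

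The genes next to CEMIP on chromosome 3 were examined as well, the 3 nearest on each side. One of them, ENSCAFG00000039880, had 3 counts in all and was not tested. Of the other 5, 2 rose with hyperosmolality, 1 rose with Nfat5-1-siRNA and 2 rose with Nfat5-2-siRNA, beside 11.3%, 3.4% and 4.67% of all tested genes. None fell significantly in any comparison, where 9.23%, 4.53% and 7.38% of all tested genes fell. With the block, the counts of rises and falls in these 3 comparisons were the same.

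ENSCAFG00000036663, the first gene beyond the 5′ end of CEMIP, was the only 1 of the 5 that rose in all 3 comparisons. It lies on the same strand, from 56861677 to 56862605, 75180 bases from CEMIP, and has 2 exon intervals with 340 exonic bases. The study's list of regulated genes holds it by identifier only, so its changes are not independent of that selection. Its raw counts were 0 in both libraries of the isosmotic control and 20 and 3 in replicates 1 and 2 of the hyperosmotic control. They were 172 and 189 with Nfat5-1-siRNA and 280 and 303 with Nfat5-2-siRNA. The order of the groups was thus that of CEMIP, at a small part of its level, and no groups overlapped. Against a floor of 3 counts per library at 300 mOsm, its mean CPM was at least 3.95-fold higher in the hyperosmotic control, at least 49.4-fold higher with Nfat5-1-siRNA and at least 88.6-fold higher with Nfat5-2-siRNA. The first of these bounds rests on replicate 1 of the hyperosmotic control, at 0.543 CPM, since replicate 2, at 0.0751 CPM, was not above the floor of 0.0781 CPM.

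Against the hyperosmotic control, the log2 fold change of ENSCAFG00000036663 was 3.66 (SE 0.55, adjusted p = 0.00725, edgeR) with Nfat5-1-siRNA and 4.50 (SE 0.55, adjusted p = 0.00132, edgeR) with Nfat5-2-siRNA. Without replicate 1 of the hyperosmotic control these values were 5.69 and 6.57, and without replicate 2 they were 2.88 and 3.76. Its hyperosmotic rise was close to the threshold (adjusted p = 0.0426, edgeR) and was not significant with edgeR's filterByExpr (adjusted p = 0.0921), in a fit of only the 4 libraries compared (adjusted p = 0.379) or when any single library other than replicate 2 of the hyperosmotic control was left out (adjusted p from 0.0847 to 0.468). Its rise with Nfat5-1-siRNA was lost without either library of that group (adjusted p = 0.0551 and 0.146, edgeR). For every 1000 counts of CEMIP there were 4.53 and 1.18 counts of this gene in the hyperosmotic control, 6.04 and 7.66 with Nfat5-1-siRNA and 10.1 and 11.1 with Nfat5-2-siRNA. The ratio was therefore not the same in all groups and was highest in both Nfat5-2-siRNA libraries. In the RefSeq annotation, on another assembly (UU_Cfam_GSD_1.0), the span of CEMIP is 138943 bases against 57314 in the count table. Whether the reads of ENSCAFG00000036663 belong to a longer CEMIP transcript was not tested.

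ENSCAFG00000029013 lies 94842 bases beyond the 5′ end, on the same strand as CEMIP. It was measured at 136 and 104 CPM in the isosmotic control, 332 and 281 CPM in the hyperosmotic control, 325 and 292 CPM with Nfat5-1-siRNA and 347 and 335 CPM with Nfat5-2-siRNA. The gene rose with hyperosmolality, by 1.35 on the log2 scale (SE 0.17, adjusted p = 0.000337, edgeR). Its values with the siRNAs were 0.01 (SE 0.16) and 0.15 (SE 0.16), with adjusted p = 1 for both from edgeR. This neighbour had the hyperosmotic part of the pattern of CEMIP, and at 500 mOsm its Nfat5-1-siRNA libraries lay within the range of the hyperosmotic control while those with Nfat5-2-siRNA lay just above it.

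On the 3′ side, ENSCAFG00000013854 rose on the log2 scale by 1.93 (SE 0.39, adjusted p = 0.0285, edgeR) with Nfat5-2-siRNA, from 5.67 and 2.75 CPM in the hyperosmotic control to 18.8 and 13.1 CPM. With Nfat5-1-siRNA, at 6.12 and 7.13 CPM, its value was 0.66 (SE 0.39, adjusted p = 1, edgeR). It was higher with Nfat5-2-siRNA than with Nfat5-1-siRNA by 1.27 on the log2 scale (SE 0.38), which was significant with the block (adjusted p = 0.000249, edgeR) and not without it (adjusted p = 1). The call with Nfat5-2-siRNA was lost with filterByExpr (adjusted p = 0.0714, edgeR). Over the fits that left out 1 library, the log2 fold change with Nfat5-2-siRNA ranged from 1.59 to 2.64. Without replicate 2 of the hyperosmotic control its log2 fold change was 1.59, without replicate 1 of Nfat5-2-siRNA it was 1.64 and without replicate 2 it was 2.16, and without either Nfat5-1-siRNA library it stayed at 1.93, none of them significant. ENSCAFG00000032146, the nearest gene at 16988 bases, did not change significantly, with log2 fold changes of −0.07 (SE 0.15), −0.41 (SE 0.15) and −0.40 (SE 0.15). ENSCAFG00000024399 had 68 counts over all libraries and no significant change. RefSeq places CEMIP between MESD and ABHD17C, but these symbols are not paired with identifiers of the count table, so the neighbours are given by identifier.

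**Figure D3:**
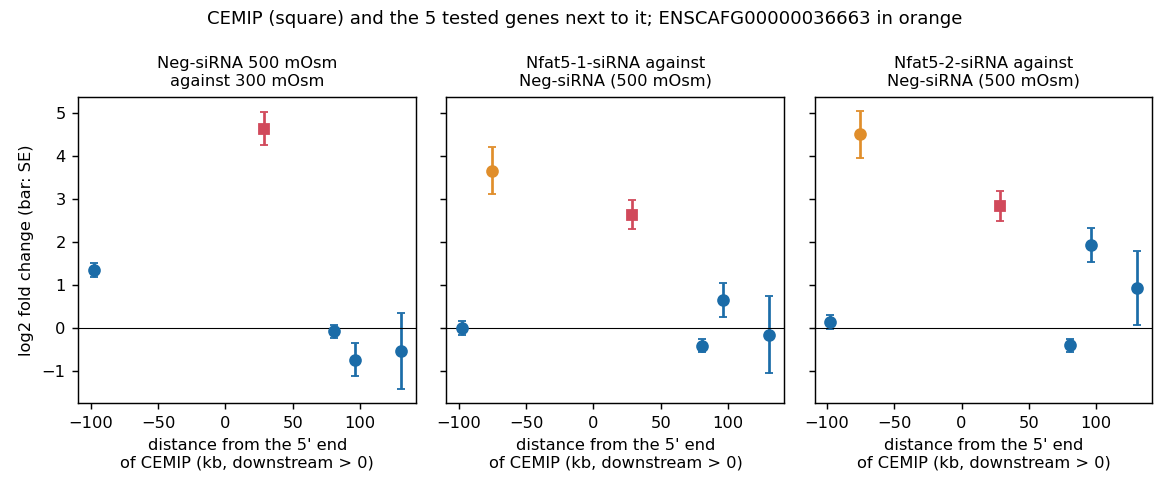
Log2 fold change with its standard error for CEMIP (red square) and the 5 tested neighbours, by the distance of the gene's middle from the 5′ end of CEMIP in kb, with positive distances in the direction of transcription. ENSCAFG00000036663 (orange) stands at 3.66 with Nfat5-1-siRNA and 4.50 with Nfat5-2-siRNA, above CEMIP in both panels. It is left out of the first panel because its counts at 300 mOsm were 0, while ENSCAFG00000029013, at the left edge, stands at 1.35 in that panel and at 0.01 and 0.15 in the others.

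For the rest of the hyaluronan pathway little could be read. Of 43 genes listed for the synthesis of hyaluronan, its degradation and its binding, 2 could be paired with an identifier, HMMR and ITIH2, and both come from the study's list of regulated genes. The synthases, the hyaluronidases, CEMIP2 and CD44 were not analysed here. None of 13 listed partners of CEMIP and its endocytosis could be paired, and of 20 factors reported to act on CEMIP transcription only TGFB1 could. HMMR and ITIH2 were both significant in each of the 3 comparisons with a control, where 20.6%, 7.93% and 12% of all tested genes were significant in either direction. Between the constructs neither was, beside 0.0403% of all tested genes. As only genes already selected as changed have a symbol, these counts say nothing of the pathway as a whole.

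HMMR codes for a receptor of hyaluronan that is also a protein of the mitotic spindle, and it moved against CEMIP in all 3 comparisons. It was measured at 53.8 and 69.0 CPM in replicates 1 and 2 of the isosmotic control, 18.9 and 18.4 CPM in the hyperosmotic control, 4.32 and 4.17 CPM with Nfat5-1-siRNA and 5.66 and 3.74 CPM with Nfat5-2-siRNA. On the log2 scale its changes came to −1.72 (SE 0.20), −2.14 (SE 0.21) and −1.99 (SE 0.21), and adjusted p-values of 0.000242, 0.000396 and 0.000332 from edgeR. HMMR was thus lowest in the groups in which CEMIP was highest, and its Nfat5-siRNA groups overlapped each other.

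ITIH2 codes for a heavy chain of inter-alpha-trypsin inhibitor, a protein that becomes bound to hyaluronan. It had 0 counts in both libraries of the isosmotic control, 220 and 234 in the hyperosmotic control, 50 and 22 with Nfat5-1-siRNA and 28 and 46 with Nfat5-2-siRNA. Its CPM was at least 75.7-fold higher in the hyperosmotic control than the floor of 3 counts per library at 300 mOsm. With the siRNAs it fell, by 2.93 (SE 0.45) and 2.75 (SE 0.44) on the log2 scale (adjusted p = 0.00779 and 0.00756, edgeR). ITIH2 therefore rose with CEMIP under hyperosmolality and parted from it with the siRNAs. Either fall was lost when 1 library of the hyperosmotic control was left out, with adjusted p-values between 0.0833 and 0.0935. The fall with Nfat5-1-siRNA was also lost without replicate 2 of that group (adjusted p = 0.229, edgeR), and that with Nfat5-2-siRNA without replicate 1 (adjusted p = 0.115, edgeR) or replicate 2 (adjusted p = 0.0519, edgeR). TGFB1, the growth factor, rose with hyperosmolality (log2 fold change 1.18, SE 0.17, adjusted p = 0.00155, edgeR) and had −0.73 (SE 0.17) and −0.71 (SE 0.17) with the siRNAs, which did not pass without the block (adjusted p = 0.0915 and 0.0832, edgeR) and did with it (adjusted p = 0.00036 and 0.000608).

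To place CEMIP beside other genes of the extracellular matrix, 34 genes were picked by their known roles from the symbols of the same list. The list was selected on these samples, so the counts are not independent evidence of a direction. Of the 34, 24 rose with hyperosmolality and 6 fell, and 4 did not pass the test, where 11.3% and 9.23% of all tested genes rose and fell. With Nfat5-1-siRNA 3 rose, 25 fell and 6 did not pass, beside 3.4% and 4.53% of all tested genes. With Nfat5-2-siRNA 1 rose, 27 fell and 6 did not pass, beside 4.67% and 7.38%. The medians of the 34 log2 fold changes were 1.94, −1.11 and −1.27, beside 0.00, −0.07 and −0.03 over all tested genes. In the block fit, 34 of the 34 were significant in each of the 3 comparisons, beside 33.1%, 21.5% and 26.1% of all tested genes. Without the block, 26 of the 30 calls with hyperosmolality passed in each of the 8 fits that left out 1 library, as did 6 of the 28 with Nfat5-1-siRNA and 13 of the 28 with Nfat5-2-siRNA.

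By the signs of the log2 fold changes, 24 of the 34 matrix genes (70.6%) went up with hyperosmolality and down with either siRNA, as did 463 of the 989 genes (46.8%) in the whole list. Only ARSB (2.94%) had the signs of CEMIP, higher in all 3, as had 84 of the 989 (8.49%). The hyperosmotic control libraries enter all 3 comparisons, as the reference in those with the siRNAs. The signs of a gene are therefore not independent, and a deviation of these libraries alone gives opposite signs. The study describes the listed genes as raised by hyperosmolality and lowered by both siRNAs. By the signs here, 463 of the 989 had that pattern and the rest, CEMIP among them, did not. All 5 genes of collagen modification were among the 24. PLOD2, a lysyl hydroxylase, was measured at 78.5 and 74.7 CPM in the isosmotic control, 1092 and 1092 CPM in the hyperosmotic control, 280 and 194 CPM with Nfat5-1-siRNA and 196 and 178 CPM with Nfat5-2-siRNA. LOX, a lysyl oxidase that cross-links collagen and elastin, rose 9.58-fold with hyperosmolality and was 3.06-fold and 3.00-fold lower with the siRNAs. LOXL2, of the same family, rose 30.1-fold and was 5.68-fold and 6.11-fold lower. The siRNA calls of both were lost without replicate 1 or replicate 2 of the hyperosmotic control and without replicate 2 of the siRNA group concerned (adjusted p from 0.0569 to 0.405, edgeR). On the log2 scale, the value of LOXL2 with Nfat5-1-siRNA was −1.90 without replicate 2 of that group and −3.57 without replicate 1, and with Nfat5-2-siRNA it was −2.07 and −3.49. With filterByExpr the call of LOXL2 with Nfat5-1-siRNA was lost (adjusted p = 0.0782, edgeR).

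Of the 10 matrix proteins and their binding partners, 8 had the same signs as the collagen enzymes. They include the laminin chain LAMA3, thrombospondin THBS1 and the secreted protein CCDC80. THBS1 had log2 fold changes of 4.16 (SE 0.29), −1.06 (SE 0.26) and −1.27 (SE 0.26). Its value with Nfat5-1-siRNA was not significant without the block (adjusted p = 0.107, edgeR). That with Nfat5-2-siRNA was lost with filterByExpr (adjusted p = 0.0727, edgeR). LAMA3 had log2 fold changes of 2.40 (SE 0.17), −1.20 (SE 0.16) and −1.18 (SE 0.16), and CCDC80 had 4.72 (SE 0.30), −1.58 (SE 0.26) and −1.23 (SE 0.26). These values of both genes passed the test, that of LAMA3 with Nfat5-1-siRNA not without replicate 2 of that group (adjusted p = 0.139, edgeR). The fall of CCDC80 with Nfat5-2-siRNA was lost with filterByExpr, in the fit of 4 libraries and when any library outside the Nfat5-1-siRNA group was left out (adjusted p from 0.0528 to 0.667, edgeR). Its fall with Nfat5-1-siRNA was lost without replicate 1 of the hyperosmotic control (adjusted p = 0.167, edgeR) or replicate 2 of Nfat5-1-siRNA (adjusted p = 0.345). FREM2, of the basement membrane, was the one with the mirrored signs, with −1.72 (SE 0.26), 1.61 (SE 0.25) and 0.96 (SE 0.25), the last not significant without the block (adjusted p = 0.128, edgeR). Its rise with Nfat5-1-siRNA was lost without replicate 2 of the hyperosmotic control (adjusted p = 0.128, edgeR) or of Nfat5-1-siRNA (adjusted p = 0.231). Of the 4 receptors, the integrin subunits ITGA2 and ITGB3 and the collagen uptake receptor MRC2 rose with hyperosmolality and fell with both siRNAs, the fall of ITGA2 with Nfat5-1-siRNA not without replicate 1 of the hyperosmotic control or replicate 2 of Nfat5-1-siRNA (adjusted p = 0.0996 and 0.242, edgeR). Between the constructs, 1 of the 34 differed significantly without the block, ITGB6, with a log2 difference of −1.43 (SE 0.16, adjusted p = 0.0192, edgeR). With the block 4 did, beside 4.94% of all tested genes, the others being FREM2, SLC35D1 and HTRA1 (adjusted p = 0.0239, 0.025 and 0.0105, edgeR). The difference of ITGB6 was not significant with filterByExpr (adjusted p = 0.0918, edgeR), in the fit of 4 libraries (adjusted p = 0.667), nor when either library of either Nfat5-siRNA or replicate 1 of the hyperosmotic control was left out (adjusted p from 0.0503 to 0.436).

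The 10 glycosaminoglycan genes were the most mixed group. ARSB codes for arylsulfatase B, which removes sulfate from dermatan and chondroitin sulfate in lysosomes, and was measured at 15.2 and 12.1 CPM in the isosmotic control and 95.9 and 96.0 CPM in the hyperosmotic control. It was at 155 and 184 CPM with Nfat5-1-siRNA and 134 and 187 CPM with Nfat5-2-siRNA. ARSB rose with hyperosmolality (log2 fold change 2.81, SE 0.19, adjusted p = 3.06e-06, edgeR). Its values with the siRNAs, 0.82 (SE 0.18) and 0.74 (SE 0.18), did not pass without the block (adjusted p = 0.0595 and 0.082, edgeR) and did with it (adjusted p = 2.94e-06 and 2.99e-05). All 4 of its Nfat5-siRNA libraries lay above both libraries of the hyperosmotic control, as those of CEMIP did.

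SLC35D1, a carrier that brings UDP-glucuronic acid and other nucleotide sugars into the endoplasmic reticulum, rose with both siRNAs, with log2 fold changes of 1.01 (SE 0.16) and 1.56 (SE 0.16). The proteoglycan core protein GPC1 rose with Nfat5-1-siRNA by 1.03 (SE 0.15), and its value with Nfat5-2-siRNA was 0.59 (SE 0.15, adjusted p = 0.117, edgeR). With hyperosmolality these genes had −0.59 (SE 0.16) and −0.57 (SE 0.15), not significant without the block (adjusted p = 0.0984 and 0.108, edgeR) and significant with it (adjusted p = 0.00247 and 0.00159). The rises of SLC35D1 and GPC1 with Nfat5-1-siRNA were lost without replicate 1 of the hyperosmotic control (adjusted p = 0.0766 and 0.0609, edgeR) or replicate 2 of Nfat5-1-siRNA (adjusted p = 0.231 and 0.195). EXT1 and EXT2, the subunits of the heparan sulfate polymerase, had opposite signs with hyperosmolality, 1.31 (SE 0.16) and −0.94 (SE 0.16). With the siRNAs, EXT1 had −0.79 (SE 0.15) and −1.03 (SE 0.16), and EXT2 had −0.81 (SE 0.16) and −1.25 (SE 0.16). Their values with Nfat5-1-siRNA passed the test (adjusted p = 0.0312 and 0.0291, edgeR) but not in the fit of 4 libraries (adjusted p = 0.0703 and 0.0572). Over the fits that left out 1 library, these values ranged from −0.89 to −0.64 for EXT1 and from −0.90 to −0.67 for EXT2. SLC35D1 and GPC1 thus shared with CEMIP the direction with the siRNAs and not that with hyperosmolality.

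**Figure D4:**
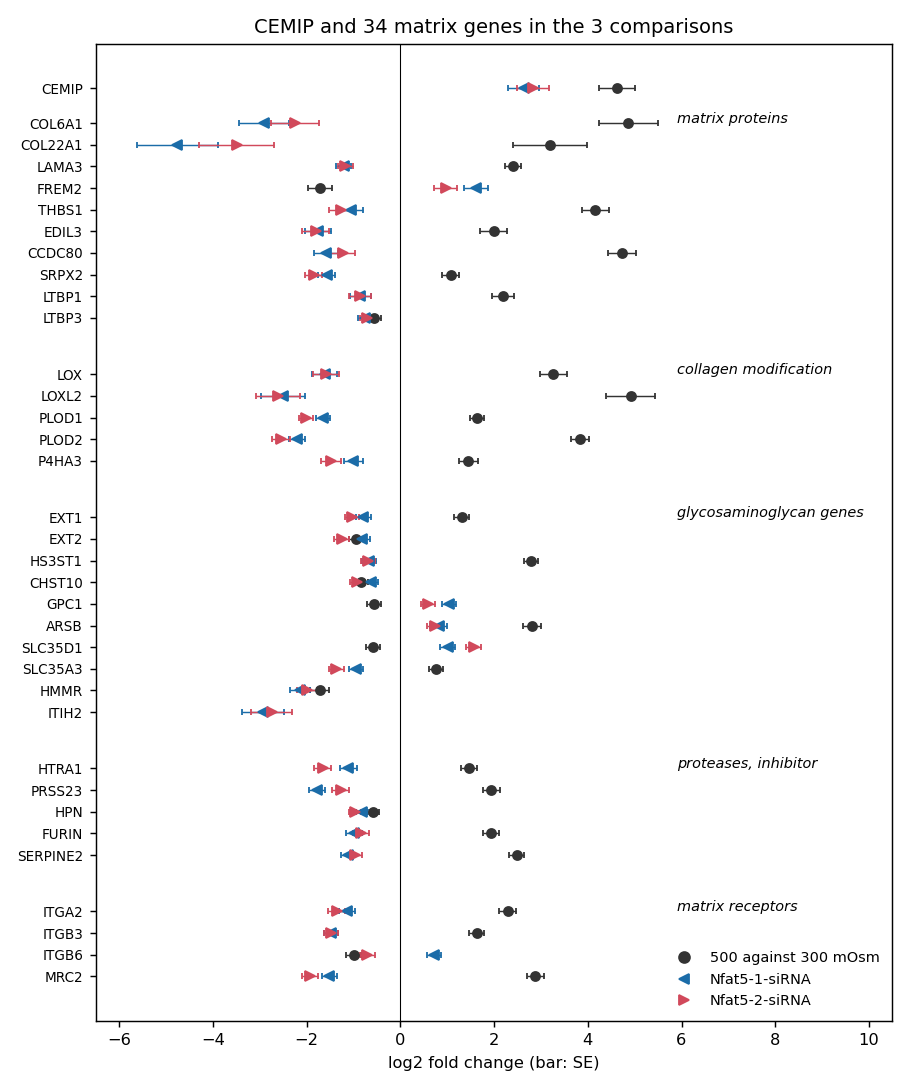
Log2 fold changes with standard errors for CEMIP and the 34 matrix genes, with circles for 500 against 300 mOsm and triangles for Nfat5-1-siRNA and Nfat5-2-siRNA against Neg-siRNA (500 mOsm). CEMIP, at 4.63, 2.63 and 2.84, and ARSB have all 3 symbols right of 0, while 24 genes, ITIH2 among them, have a higher level at 500 mOsm and both triangles to the left. The circle of ITIH2 is not drawn because its counts at 300 mOsm were 0.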

How the data were processed

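Reads of the 8 libraries were mapped by the authors to CanFam 3.1 with HISAT2 2.0.5 and counted with featureCounts 1.5.1 on the exons of Ensembl annotation 92, without regard to strand, per the file headers and the submitters' processing notes. The deposited values are raw read counts per gene, and the exon length in bases is an other column of the deposited table. No option for counting read pairs as fragments was set, so mates may have been counted separately. No column of values per library was left unused (0). The symbols come from the study's supplementary list, of which only names and identifiers were used: 860 of its 989 genes have a symbol. Its columns of fold changes and p-values were not used. No sequence of CEMIP was used here.

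Genes whose counts summed to 5 or more were kept and tested with edgeR 4.0.16 (R 4.3.3), using TMM normalization and the two-sided quasi-likelihood test, all 4 groups being fitted together. Adjusted p-values are Benjamini-Yekutieli over all tested genes, and those under 0.05 were called significant. The SE came from the F statistic. Correlations used log2 CPM with a prior count of 2, in Python 3.11.15. The fits were checked on simulated counts. Named genes were CEMIP, listed pathway genes, the 3 nearest genes on each side, the 6 genes with the highest r, 4 osmolyte genes, Nfat5 and HMOX1. CEMIP, the lists and the tests were chosen with earlier results of these data known, and the 34 matrix genes were added after the files were read. Of the genes with the highest r, 5 are reported here.

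Replicate 1 is passage 15 and replicate 2 passage 17 in each group, which gives the pairing. The difference between passages was correlated between groups over 9202 genes (6 pairs of groups, lowest Pearson's r 0.158, highest 0.581). Alternatives were DESeq2's size factors, no filter, filterByExpr, DESeq2 1.42.0, the Benjamini-Hochberg adjustment, the replicate block, fits of the 4 libraries compared, and each library left out in turn.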

Additional observations from a re-analysis of the deposited data

How the results depend on the processing

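The log2 fold change of CEMIP kept its sign in the 3 comparisons under every alternative run and moved by less than the SD between passages, except when libraries were left out, with ranges of 4.04 to 5.48 with hyperosmolality, 2.30 to 3.22 with Nfat5-1-siRNA and 2.55 to 3.46 with Nfat5-2-siRNA. The difference between the constructs ranged from 0.0983 to 0.319 with libraries left out and was not significant under any alternative run. With the replicate block, 6565 genes were called with hyperosmolality, 4264 with Nfat5-1-siRNA, 5168 with Nfat5-2-siRNA and 979 between the constructs, against 4077, 1572, 2390 and 8 without it. The Benjamini-Hochberg adjustment gave 7033, 4033, 5250 and 186. Without the filter there were 2866, 3760 and 337 calls with Nfat5-1-siRNA, with Nfat5-2-siRNA and between the constructs. DESeq2 gave 2682 with Nfat5-1-siRNA and 213 between the constructs, DESeq2's size factors gave 34 between them, and the fit of 4 libraries gave 1565 with Nfat5-2-siRNA. Between the constructs filterByExpr and the fit of 4 libraries gave 0, where 2957 genes had an unadjusted p under 0.05 in the edgeR fit of all libraries. With each library left out, the calls ranged from 2384 to 4157, from 159 to 1620, from 954 to 2272 and from 0 to 38, and those of HMMR and ITIH2 from 2 to 2, from 1 to 2, from 1 to 2 and from 0 to 0. Of 119 significant calls of genes listed by name or role, 119 were kept with the block, with DESeq2, with the Benjamini-Hochberg adjustment and without the filter, 116 with DESeq2's size factors, 107 with filterByExpr and 106 with the fit of 4 libraries. None changed sign. Over the fits with 1 library left out, 741 such calls were kept and 211 lost, where a lone library was assumed to vary like the other groups. Of the 6 genes most like CEMIP, 6 were found with DESeq2's size factors and 0 by Spearman's rho, whose first 6 were cut from tied values.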
